A study of Rattus norvegicus with 46 samples.

Results

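The 10 genes described here are core genes of the circadian clock, the loop of transcription factors that keeps daily time in most mammalian cells. They were taken by symbol from the deposited tables: Arntl, Clock, Npas2, Per1, Per2, Per3, Cry1, Nr1d1, Nr1d2 and Dbp. All 10 were found, each as 1 row among 30045 genes, in each of the 4 tables. Sequencing measured their RNA in the lung and blood of male rats of Fischer 344, an inbred strain, which the series title calls aged and whose age in months the labels do not give. The rats breathed either filtered air or a fine crystalline silica dust (Min-U-Sil 5) at 15 mg/m3, in a whole-body chamber, on 5 days of 6 hours each. They were killed 1 day or 6 months after exposure. Air and silica rats at both times shared the strain, sex, diet and a 12-hour light-dark cycle. Tissue, time and exposure divide the 46 samples into 8 groups, of 6 samples each but for the 4 air lungs of 6 months. The labels give neither the hour of death nor which lung and blood samples came from the same animal.

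In the clock, ARNTL (also called BMAL1) pairs with CLOCK or its relative NPAS2 and switches on genes that carry E-box sequences, among them the Per and Cry genes, Nr1d1, Nr1d2 and Dbp. The PER and CRY proteins then shut this pair down, and the nuclear receptors NR1D1 and NR1D2 (REV-ERB alpha and beta) repress Arntl, Clock, Npas2 and Cry1 through sites they share with the ROR activators. DBP is an output factor that drives further genes, including the Per genes, through D-box sequences. In peripheral organs of nocturnal rodents, Arntl and Npas2 RNA usually peaks around the end of the night, Nr1d1 and Dbp RNA in the light phase, Per1 and Per2 RNA near dusk, and Cry1 RNA in the night. The relative level of Arntl and Dbp or Nr1d1 in a sample therefore varies with the hour at which tissue is taken.

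Promoter windows, 250 bases before to 50 bases after the start of transcription, were found in the RefSeq table (build GRCr8) for 9 of the 10 genes. Cry1 had no entry. The 9 genes have 11 windows of 300 bases, since Clock and Nr1d1 have 2 starts each. They were searched on both strands for the E-box CACGTG, the D-box TTANGTAA and the ROR element core TNGGTCA. Each motif was found in 1 of the 11 windows, and the 3 windows are shown because each carries one of the 3 elements that link these genes to each other. Capitals mark the match. The E-box lies at -191 in the window of the second Nr1d1 start (chr10:84229405-84229704, minus strand). The D-box lies at -192 in the Per2 window (chr9:99496944-99497243, minus strand). The ROR core lies at -16 in the Arntl window (chr1:176766078-176766377, plus strand).
Nr1d1, second start: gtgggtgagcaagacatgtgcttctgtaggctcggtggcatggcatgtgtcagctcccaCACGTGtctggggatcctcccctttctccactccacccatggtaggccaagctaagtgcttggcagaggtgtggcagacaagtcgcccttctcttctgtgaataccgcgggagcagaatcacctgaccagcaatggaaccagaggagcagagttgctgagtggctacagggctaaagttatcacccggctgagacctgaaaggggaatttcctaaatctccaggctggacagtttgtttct
Per2: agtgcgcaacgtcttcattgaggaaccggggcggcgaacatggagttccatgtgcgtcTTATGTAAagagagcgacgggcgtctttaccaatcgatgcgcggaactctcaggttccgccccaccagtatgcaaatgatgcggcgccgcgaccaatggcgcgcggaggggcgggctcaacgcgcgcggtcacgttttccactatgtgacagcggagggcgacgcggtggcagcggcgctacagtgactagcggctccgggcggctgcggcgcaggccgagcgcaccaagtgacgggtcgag
Arntl: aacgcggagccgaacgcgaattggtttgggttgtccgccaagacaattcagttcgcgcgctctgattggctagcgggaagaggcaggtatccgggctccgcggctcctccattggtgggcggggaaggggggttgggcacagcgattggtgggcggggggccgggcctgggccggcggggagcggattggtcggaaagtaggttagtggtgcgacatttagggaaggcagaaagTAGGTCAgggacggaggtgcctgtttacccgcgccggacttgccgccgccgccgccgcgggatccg
Among all 33469 windows of the same length in the table, 6.42% held the E-box, 2.24% the D-box and 11.1% the ROR core. A single match among 11 windows is given here as a description of these letters. Whether any match is a working site was not tested.

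Levels are given as CPM, a count divided by its library's total after TMM scaling within each tissue. Total counts were 13.4 M to 24.6 M per lung library and 10.6 M to 17.5 M per blood library. Blood libraries needed TMM factors of 0.467 to 1.72 where lung needed 0.942 to 1.03, so blood levels rest more on the scaling. Within lung, 5 pairs of libraries of the same group differed by little more than counting noise and entered as their mean, 1 sample each, leaving 4 air and 6 silica lungs at 1 day and 2 air and 5 silica lungs at 6 months. No label states that replicates came from different animals, and p-values cover only the spread among these libraries, which may be technical. Markers matched the labelled tissues: 6 alveolar type 2 cell genes summed to at least 12770 CPM in each lung library and at most 33.6 CPM in blood. In tissue samples, fewer cells of a type and less RNA per cell cannot be told apart.

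**Figure D1:**
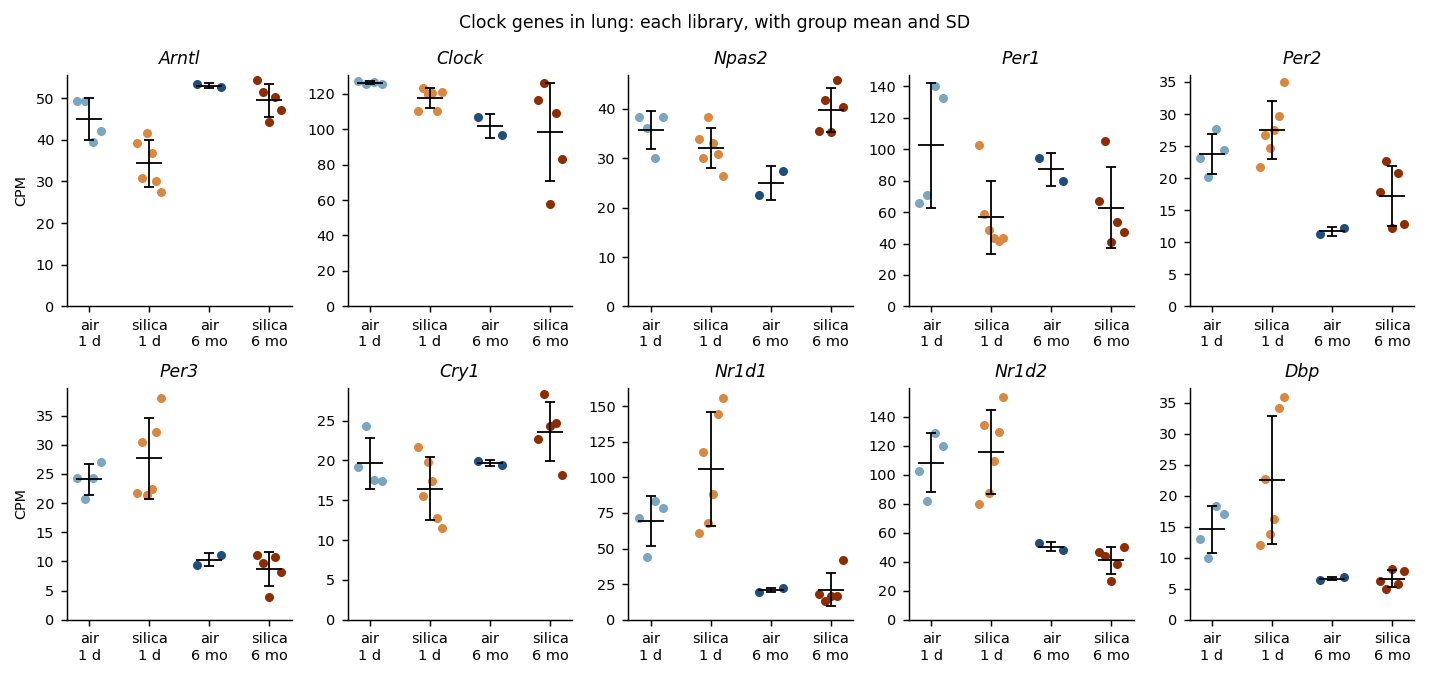
CPM of the 10 clock genes in lung (vertical axis, linear from 0), with 1 point per library, a long bar for the group mean and whiskers for the SD. Air at 6 months has 2 points, and Nr1d1, Nr1d2, Per3 and Dbp sit lower in every library of 6 months than in any of 1 day. The share of all genes that do so was not counted. The times come near each other for Nr1d1, at 41.7 CPM in 1 silica library of 6 months against 43.9 CPM in an air library of 1 day. They also do so for Dbp, at 8.25 CPM in a silica library of 6 months against 9.99 CPM in an air library of 1 day.

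All 10 genes were read in lung. Arntl, Clock, Npas2, Per1, Cry1, Nr1d1 and Nr1d2 were higher in the lowest lung library than in the highest blood library, although the 2 tissues were not scaled to each other. The share of all genes that separated the tissues in this way was not counted. Nr1d1 was highest in silica lungs of 1 day, at 106 ± 39.9 CPM (SD, n = 6), then in air lungs of 1 day at 69.4 ± 17.8 CPM (n = 4). It was at 21.2 ± 11.6 CPM in silica lungs (n = 5) and 20.9 ± 1.67 CPM in air lungs (n = 2) of 6 months. The 2 groups of 1 day overlapped each other, the 2 groups of 6 months overlapped each other, and the times did not overlap. Arntl had the opposite order, from 53.0 ± 0.615 CPM in air lungs of 6 months (n = 2) to 34.3 ± 5.70 CPM in silica lungs of 1 day (n = 6), and each neighbour in that order overlapped the next. Per2 and Dbp crossed between tissues. Per2 in air lungs of 6 months was at 11.7 ± 0.704 CPM (n = 2), the lowest of its 8 groups, and Dbp in both lung groups of 6 months was below both blood groups of 1 day in its mean. Npas2 was barely read in blood, at 0 to 0.812 CPM, where 3 counts before TMM scaling amount to 0.171 to 0.282 CPM, and it passed the filter on low counts only in lung.

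At 1 day, no clock gene in lung passed the test between silica and air. The test was edgeR's quasi-likelihood F test with Benjamini-Hochberg adjustment over all genes tested and a threshold of 0.05. It called 0 of the 10 genes, against 11.7% of all 15724 genes tested, and 3849 genes had an unadjusted p under 0.05. Among the activators, Arntl stood at 49.3, 49.3, 39.6 and 42.1 CPM in air and at 27.4 to 41.7 CPM, median 33.9, in silica. Silica lungs lay below all air lungs except for library 12, at 41.7 CPM, which stood within the air range. The difference was -0.39 ± 0.12 on the log2 scale (SE), with an adjusted p of 0.0632. Clock was at 125.3 to 127.3 CPM in the 4 air lungs and at 110.0 to 123.1 CPM, median 120.2, in silica. These groups did not overlap, but the shift was small, at -0.10 ± 0.04 (adjusted p = 0.15). Npas2 differed by -0.15 ± 0.10 (adjusted p = 0.372).

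Per1, a repressor gene that also answers directly to stress signals such as glucocorticoids, was at 65.8, 70.7, 140.5 and 132.7 CPM in the 4 air lungs. In silica lungs it ranged from 41.7 to 102.8 CPM with a median of 46.2. Only library 10 of the silica group, at 102.8 CPM, lay within the air range. The log2 difference was -0.85 ± 0.34 (adjusted p = 0.166). Per2 and Per3, its relatives, differed by 0.22 ± 0.12 (adjusted p = 0.324) and 0.20 ± 0.18 (adjusted p = 0.554). Cry1, whose protein blocks the activators, differed by -0.25 ± 0.18 (adjusted p = 0.44).

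The REV-ERB gene Nr1d1 was at 71.1, 43.9, 83.7 and 78.8 CPM in air lungs of 1 day. In silica lungs its lowest value was 60.8, its median 103.1 and its highest 155.6 CPM. Nr1d1 was above all air lungs in 4 of the 6 silica lungs and within the air range in the others, a difference of 0.61 ± 0.33 (adjusted p = 0.303). Nr1d2 differed by 0.10 ± 0.21 (adjusted p = 0.838). The output gene Dbp was at 13.1, 9.99, 18.3 and 17.0 CPM in air and at 12.1 to 35.9 CPM, median 19.5, in silica. The highest silica lungs exceeded every air lung while the lowest lay among them, and the log2 difference was 0.63 ± 0.37 (adjusted p = 0.353). Over the 10 genes the median log2 difference was 0.00, and over all genes tested it was 0.00. Arntl passed the threshold in 3 other analyses: with DESeq2 (adjusted p = 0.0129), with the near-identical libraries kept separate (0.00943) and without silica library 12 (0.0268). Keeping those libraries separate also called Clock (0.0447), and leaving out silica library 10 called Per1 (-1.12, adjusted p = 0.0384).

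At 6 months, 1 of the 10 genes passed in lung, against 19.6% of 16265 genes tested (9.52% counting only higher genes). Npas2, the partner of ARNTL that can stand in for CLOCK, was at 22.6 and 27.5 CPM in the 2 air samples. The 5 silica samples were at 35.6, 41.9, 35.3, 45.8 and 40.3 CPM, all above both air samples. The rise was 0.70 ± 0.15 (adjusted p = 0.0204). With 2 air samples the call was lost without either of them (0.57, adjusted p = 0.212, without libraries 19 and 24, and 0.87, adjusted p = 0.0573, without 20 and 25) and without silica library 35 (0.69, adjusted p = 0.0517).

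The other clock genes did not pass at 6 months. Per2 was at 11.2 and 12.2 CPM in air and at 17.9, 22.6, 12.2, 20.8 and 12.8 CPM in silica, a spread in which 3 silica samples stood well above air and the rest near it. Its difference was 0.59 ± 0.28 (adjusted p = 0.178), and it passed with the near-identical libraries separate (0.60, adjusted p = 0.023). Arntl was at 53.5 and 52.6 CPM in air and 54.3, 51.5, 44.2, 50.3 and 47.1 CPM in silica. The Arntl groups overlapped, with a difference of -0.07 ± 0.11 (adjusted p = 0.694). Cry1 differed by 0.29 ± 0.17, Per1 by -0.44 ± 0.34, Per3 by -0.20 ± 0.36, Nr1d2 by -0.27 ± 0.23, Nr1d1 by 0.04 ± 0.43, Dbp by 0.02 ± 0.24 and Clock by -0.02 ± 0.28, with adjusted p-values from 0.276 to 0.972. Of the silica libraries of 6 months, number 33 had the lowest Clock (57.7 CPM), Per3 (3.92 CPM), Nr1d2 (26.4 CPM) and Per1 (40.8 CPM), and number 35 had the highest Nr1d1.

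Markers of other cells differed between silica and air lungs beside these values. At 6 months, 5 of 6 natural killer (NK) cell markers were lower in silica (median -2.27), with sums of 202 to 605 CPM against 1806 and 2355 CPM in the 2 air samples, while 6 of 8 neutrophil markers (median 2.50), 5 of 6 alveolar type 2 cell markers (1.25), 4 of 6 monocyte and macrophage markers (1.35) and all 3 B cell markers tested (2.38) were higher. Of 7 T cell markers, 4 were higher and 2 lower, with a median of 1.47 but sums of 228 to 468 CPM in silica against 755 and 926 CPM in air. At 1 day, 6 of 8 neutrophil markers (median 0.87), 5 of 6 alveolar type 2 cell markers (median 0.37) and 3 of 5 monocyte and macrophage markers (0.38) were higher. At that time 3 of 5 alveolar type 1 cell markers (-0.22) and 3 of 6 endothelial markers (-0.19) were lower, and no NK cell marker passed. Over all genes tested, 11.7% were called at 1 day and 19.6% at 6 months. The part of the marked cells in the clock gene values was not tested.

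Whether the silica effect in lung differed between the times was tested as an interaction in 1 fit of the 4 lung groups. Npas2 passed, with an effect higher by 0.82 ± 0.18 at 6 months than at 1 day (adjusted p = 0.00372), against 26.8% of 16568 genes called. It was lost without air libraries 19 and 24 of 6 months (0.69, adjusted p = 0.0522). The other 9 genes had adjusted p-values from 0.173 (Cry1) to 0.891 (Clock).

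**Figure D2:**
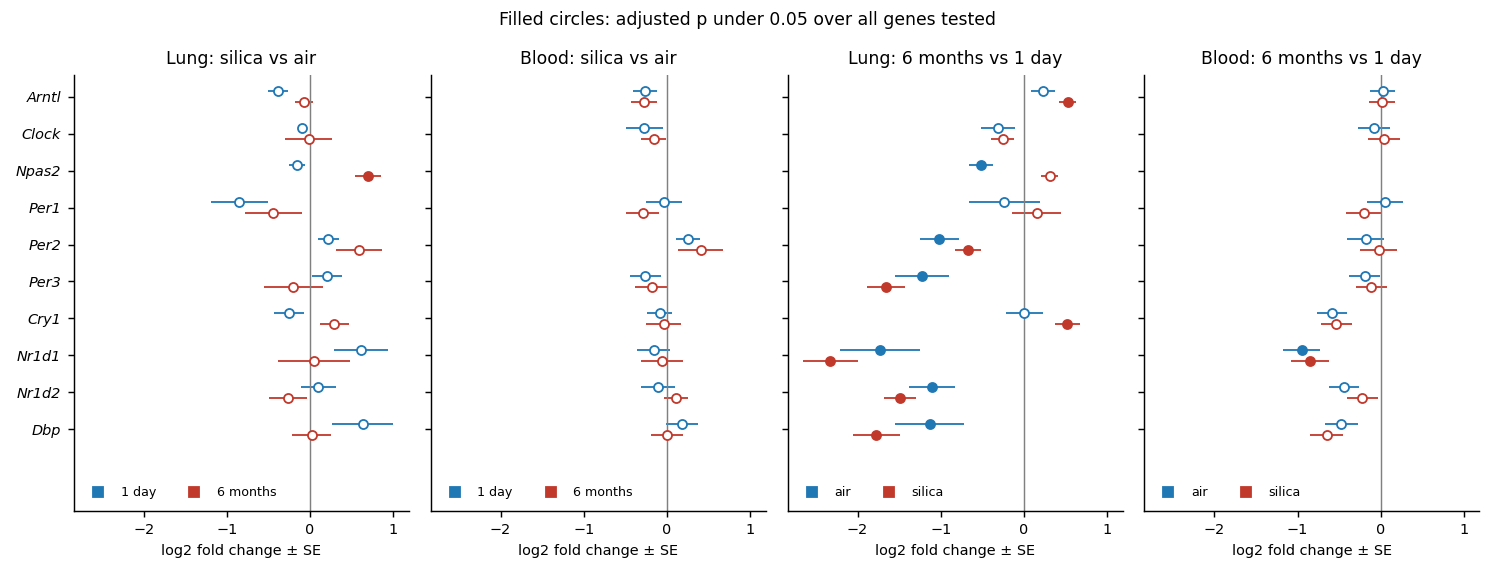
Log2 fold changes with SE (horizontal axis) of the 10 genes in the silica against air and the 6 months against 1 day comparisons of each tissue. Circles are filled where the adjusted p was under 0.05: Npas2 alone in silica against air, and most of the lung column of 6 months against 1 day, where Nr1d1 reaches -2.33 in silica rats, and Nr1d1 alone in the blood column of 6 months against 1 day.

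More clock genes passed between the 2 times than between silica and air. In silica lungs, 7 of the 10 genes passed between 6 months and 1 day, against 9.65% of 16568 genes tested. Of these 5 were lower (5.21% of all genes) and 2 were higher (4.44%). In air lungs, 6 of the 10 passed and all 6 were lower, against 41.5% of genes called in either direction and 19.1% called lower. The median over the 10 genes was -0.46 in silica and -0.76 in air, where the median over all genes was 0.00 and -0.01. The times differ in age, date and anything else that went with them, which cannot be told apart in this design.

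Nr1d1, the clock gene with the largest fall in both, dropped by 2.33 ± 0.33 on the log2 scale in silica lungs (adjusted p = 0.00108) and by 1.73 ± 0.48 in air lungs (adjusted p = 0.00972). Its silica lungs of 6 months were at 18.3, 13, 16.4, 16.5 and 41.7 CPM, all below the lowest silica lung of 1 day. The air samples of 6 months were at 19.7 and 22.1 CPM, likewise below all 4 of 1 day. Its relative Nr1d2 fell by 1.49 ± 0.19 in silica (adjusted p = 0.000608) and fell by 1.103 ± 0.28 in air (adjusted p = 0.00466), from medians of 119.5 and 111.3 CPM at 1 day to 44.0 and 50.4 CPM.

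Dbp fell by 1.77 ± 0.29 in silica lungs (adjusted p = 0.00234), where the 5 samples of 6 months were at 6.18, 4.95, 8.25, 5.77 and 7.86 CPM. In air it was at 6.46 and 6.82 CPM and fell by 1.13 ± 0.42 (adjusted p = 0.0387). All 7 samples of 6 months lay below every lung of 1 day. Per3 fell by 1.66 ± 0.22 in silica (adjusted p = 0.00071) and fell by 1.229 ± 0.32 in air (adjusted p = 0.00646). Per2 fell by 0.67 ± 0.16 (adjusted p = 0.0172) and by 1.02 ± 0.24 (adjusted p = 0.00296). Per1 did not pass in either, with 0.15 ± 0.30 in silica and -0.23 ± 0.43 in air.

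The activators moved less. Arntl rose in silica lungs by 0.53 ± 0.10 (adjusted p = 0.00669), all 5 samples of 6 months lying above all 6 of 1 day, and differed by 0.23 ± 0.15 in air (adjusted p = 0.211). Npas2 fell in air lungs by 0.51 ± 0.15 (adjusted p = 0.0106) and differed by 0.31 ± 0.10 in silica (adjusted p = 0.0589), a higher value that passed in 5 of 23 other analyses (adjusted p down to 0.0247), 3 of them with 1 library left out: silica library 12 of 1 day (0.37, adjusted p = 0.0358), or silica libraries 30 and 31 (0.36, 0.028) or 33 (0.35, 0.0445) of 6 months. Clock did not pass in either (-0.25 ± 0.14 in silica, -0.31 ± 0.20 in air). Cry1 rose in silica by 0.52 ± 0.15 (adjusted p = 0.0429) and differed by 0.00 ± 0.22 in air (adjusted p = 0.989).

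The silica calls for Arntl, Per2, Per3, Nr1d1, Nr1d2 and Dbp stayed past the threshold in each of 23 other analyses, while Cry1 lost it in 11, 10 of them with 1 library left out. In air, 2 genes, Per2 and Nr1d2, passed without libraries 19 and 24 of 6 months, where Npas2 (adjusted p = 0.176), Per3 (0.0788), Nr1d1 (0.0965) and Dbp (0.193) did not. Nr1d1 (0.0506) and Dbp (0.123) were also lost without air libraries 20 and 25, and Dbp without air library 05 (0.0815) or 06 (0.0753) of 1 day. Without silica library 33 of 6 months, Clock passed as well in air (-0.31, adjusted p = 0.0307). Beside these falls, 5 of 6 NK cell markers were higher in air lungs of 6 months than of 1 day (median 2.57) and all 5 B cell markers tested were lower (median -3.42), as were 5 of 8 neutrophil, 4 of 5 alveolar type 1 and 4 of 6 alveolar type 2 cell markers. In silica lungs 3 of 7 T cell markers and 3 of 8 neutrophil markers were higher, 3 of 6 endothelial markers and 1 of 5 B cell markers were lower, and no NK cell marker passed. The part of these cells in the clock gene values was not tested.

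The genes of the loop outside the 10 were read from lists. Of 9 further clock transcription factors tested in lung at 1 day, 2 were higher and 1 was lower in silica, where 11.7% of all genes tested were called. Bhlhe40 (0.48 ± 0.07, adjusted p = 0.000811) and Bhlhe41 (0.46 ± 0.08, adjusted p = 0.00276), repressors that compete at E-boxes, rose, and Ciart, another repressor, fell by 0.24 ± 0.07 (adjusted p = 0.0439). At 6 months 2 of 10 were higher and 2 lower, where 19.6% of all genes tested were called. Among these Bhlhe41 rose by 1.17 ± 0.28 (adjusted p = 0.0272), while Arntl2, the second ARNTL gene, was lower (adjusted p = 0.0141), with no fold given because its count was at or under 3 in some silica lungs. Of 17 kinases, ligases and partners of the clock proteins, 3 were lower at 6 months: Wdr5 (-0.86 ± 0.13, adjusted p = 0.00766), Nono (-0.65 ± 0.12, adjusted p = 0.0125) and Timeless (-0.78 ± 0.15, adjusted p = 0.0141). That share of the list is near the 19.6% called over all genes. None of 16 passed at 1 day. None of 16 clock output genes passed at either time.

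Between 6 months and 1 day, 3 of the 10 further transcription factors were higher and 5 lower in air lungs, and 1 was higher and 2 lower in silica lungs. Over all genes tested, 41.5% were called in air lungs and 9.65% in silica lungs. Tef, which encodes a close relative of DBP and was singled out after its values were seen, fell by 0.90 ± 0.18 in air (adjusted p = 0.000925) and by 0.93 ± 0.12 in silica (adjusted p = 0.000689). Of 14 glucocorticoid-responsive genes in lung, 2 were higher and 2 lower in silica than in air at 1 day, and 2 were higher and 1 lower at 6 months. Of 10 genes that answer to body temperature, 2 were higher and 1 lower at 1 day, and 1 was higher at 6 months. These counts stand beside 11.7% of all genes called at 1 day and 19.6% at 6 months. Their medians at 1 day were -0.19 and -0.02, where all genes had 0.00.

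Within the silica lungs of 1 day, Arntl and Dbp were inversely ordered. The 3 libraries with the least Arntl, numbers 11, 14 and 15 at 30.9, 30.1 and 27.4 CPM, had the most Dbp, at 22.7, 34.2 and 35.9 CPM, and the most Nr1d1, at 118, 145 and 156 CPM. The remaining 3, numbers 10, 12 and 13, had 39.2, 41.7 and 36.9 CPM of Arntl and 12.1, 13.9 and 16.3 CPM of Dbp. Pearson's r of log2 CPM was -0.95 (n = 6, two-sided exact permutation p = 0.00972, adjusted over 5 groups 0.0243), and Spearman's rho was -0.943 (exact permutation p = 0.0167, adjusted 0.0417). Without the 2 libraries farthest from the median of Arntl, r was -0.95.

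Blood of silica rats at 1 day also showed an inverse order, with r = -0.926 (n = 6, exact permutation p = 0.00694, adjusted 0.0243) and rho = -0.943 (exact permutation p = 0.0167, adjusted 0.0417), and r = -0.986 without the 2 farthest. Blood libraries 11, 12 and 15 had the least Arntl, at 5.18, 5.43 and 5.72 CPM, and the most Dbp, at 14.7, 10.5 and 8.86 CPM. In the other blood groups the relation did not pass: r was 0.179 in air at 1 day (exact permutation p = 0.692), -0.71 in air at 6 months (0.126) and 0.353 in silica at 6 months (0.457). Without the 2 farthest these became -0.0972, -0.14 and -0.718, with a change of sign in the first and the last. The smallest p that 6 libraries allow is 0.00278. Whether r differed between groups was not tested, and lung groups of fewer than 6 samples were not read this way. TMM scaling acts on both genes of a library alike.

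**Figure D3:**
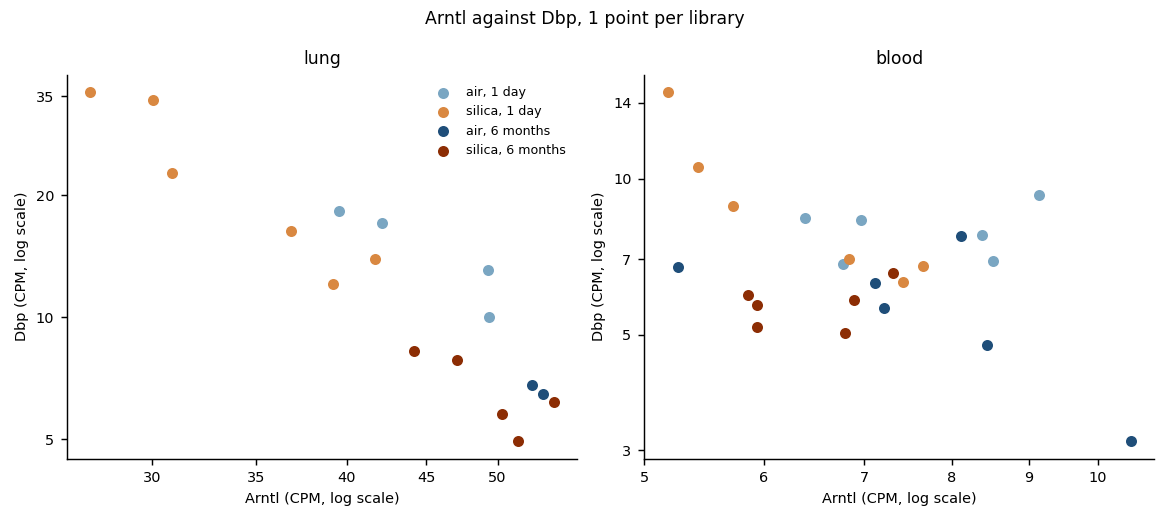
Dbp against Arntl, both in CPM on log axes, 1 point per library, for lung and blood. In lung, points run from the silica libraries of 1 day with the least Arntl (27.4 CPM) and the most Dbp (35.9 CPM) to the libraries of 6 months, which all have less than 9 CPM of Dbp.

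The log2 ratio of Dbp to Arntl CPM was formed in each library as a description that scaling between libraries does not touch. Its sign has no meaning of its own, since the genes differ in length. In lungs of 1 day it was -1.92, -2.30, -1.11 and -1.31 in air and ran from -1.70 to 0.39, median -0.81, in silica. The silica lungs of 1 day thus covered a range of which the lower part lay within the air values. In lungs of 6 months it was -3.05 and -2.95 in air and from -3.38 to -2.42 in silica, below every lung of 1 day. Means were -1.66 ± 0.55 (air, n = 4) and -0.72 ± 0.90 (silica, n = 6) at 1 day and -3.00 ± 0.07 (air, n = 2) and -2.93 ± 0.41 (silica, n = 5) at 6 months. Silica minus air was thus 0.94 at 1 day, with a pooled SD of 0.79, and 0.07 at 6 months, with a pooled SD of 0.36. The difference between times was -1.34 in air and -2.21 in silica, beyond the pooled SDs of 0.48 and 0.72.

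In blood the ratio was 0.05 ± 0.25 in air and 0.45 ± 0.70 in silica at 1 day, and -0.47 ± 0.74 in air and -0.17 ± 0.16 in silica at 6 months (n = 6 each). All 4 groups overlapped. The highest value was 1.501, in silica library 11 of 1 day, and the lowest -1.75, in air library 25 of 6 months. Library 25 differed from the other air libraries of 6 months at 86.2% to 88.18% of genes (chi-square test, p under 0.05). Pairs among those other libraries differed at 35.05% to 56.03% of genes. Library 25 also had the highest TMM factor in blood, 1.725. Silica minus air was 0.40 at 1 day with a pooled SD of 0.52 and 0.29 at 6 months with a pooled SD of 0.53. The difference between times was -0.52 in air and -0.63 in silica, beside pooled SDs of 0.55 and 0.50. The log2 ratio of Nr1d1 to Arntl, which was not part of the plan, separated the times in blood within air and within silica, but not across them. Its lowest value in silica at 1 day, -1.23, lay just below its highest in air at 6 months, -1.21. It ran from -1.14 to -0.35 in air at 1 day and from -3.24 to -1.21 at 6 months, and from -1.23 to 0.34 in silica at 1 day and from -1.74 to -1.44 at 6 months. In lung the times only just separated by this ratio. Its lowest lung value at 1 day was -0.1685, in air, and its highest at 6 months -0.1753, in silica. Whether the hour of death differed between groups was not tested, and no label gives it.

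**Figure D4:**
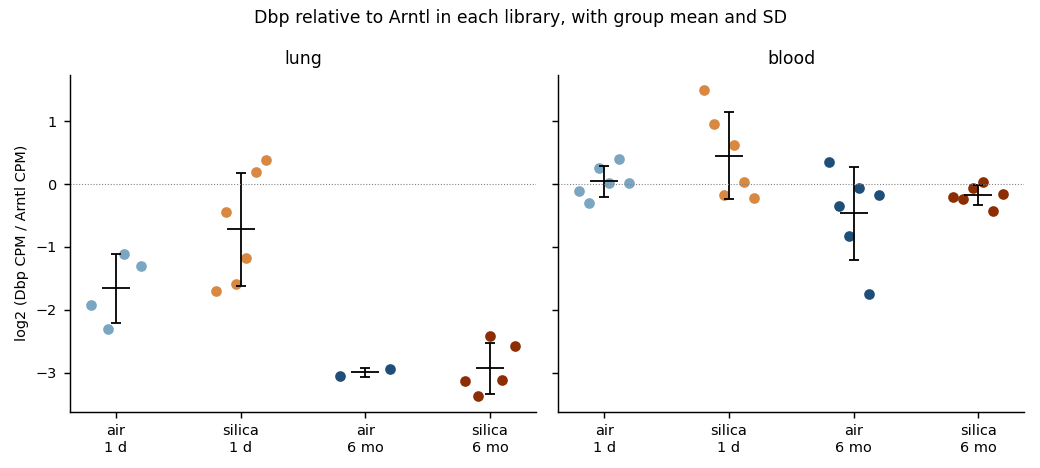
Log2 ratio of Dbp to Arntl CPM in each library (points), with the group mean (long bar) and SD (whiskers), for lung and blood. Lungs of 6 months lie between -3.38 and -2.42, below all lungs of 1 day, whereas the blood groups overlap.

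**Figure D5:**
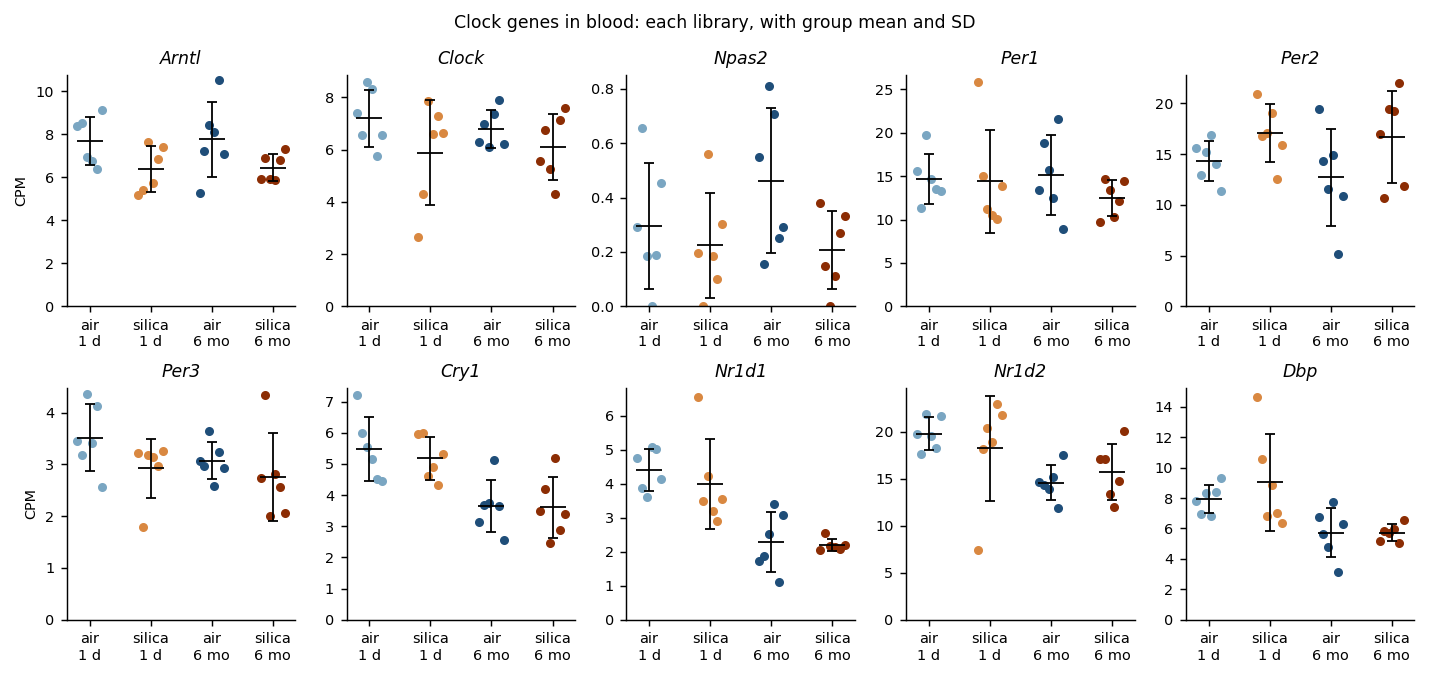
CPM of the 10 clock genes in blood (vertical axis, linear from 0), 1 point per library, with group mean and SD. Silica library 11 of 1 day has the lowest Clock (2.64 CPM) and Nr1d2 (7.43 CPM) and the highest Per1 (25.8 CPM) and Dbp (14.7 CPM) of its group, and Npas2 stays under 1 CPM in all libraries.

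In blood, no clock gene passed between silica and air at either time. The test called 0 of the 9 genes that passed the filter on low counts, against 0% of 11876 genes at 1 day (430 with an unadjusted p under 0.05 and 0 by DESeq2) and 0% of 11615 genes at 6 months (720 and 2). At 1 day the differences ran from -0.27 ± 0.22 (Clock) and -0.27 ± 0.14 (Arntl) to 0.25 ± 0.14 (Per2). At 6 months they ran from -0.29 ± 0.20 (Per1) to 0.40 ± 0.27 (Per2). Every adjusted p was 1 at 1 day and 0.658 or more at 6 months. Arntl in blood at 1 day had a low, median and high of 6.39, 7.67 and 9.14 CPM in air and of 5.18, 6.28 and 7.66 CPM in silica. Nr1d1 had 3.604, 4.45 and 5.09 CPM in air and 2.92, 3.52 and 6.55 CPM in silica. Silica library 11 had the lowest Clock and Nr1d2 and the highest Per1, Dbp and Nr1d1 of its group. Without it the difference of Dbp went from 0.18 to 0.002, that of Clock from -0.27 to -0.12 and that of Nr1d1 from -0.16 to -0.34. That library had 14189 genes detected, the fewest in blood, and gave 45.2% of its counts to its 10 most abundant genes, where blood libraries ranged from 25.4% to 46.0%.

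Between 6 months and 1 day, Nr1d1 alone passed in blood. It fell by 0.95 ± 0.22 in air (adjusted p = 0.0376, against 0.824% of 12264 genes called and 0.734% called lower) and by 0.85 ± 0.23 in silica (adjusted p = 0.04, against 3.4% called and 0.693% called lower). In air it had a low, median and high of 3.604, 4.45 and 5.09 CPM at 1 day and of 1.11, 2.20 and 3.41 CPM at 6 months, with no overlap. In silica the values were 2.92, 3.52 and 6.55 CPM at 1 day and 2.06, 2.15 and 2.54 CPM at 6 months, again with no overlap. Leaving out 1 of 24 libraries ended the call in 10 cases in air (adjusted p up to 0.102) and in 11 in silica (up to 0.11), and dropping the filter on low counts ended it in silica (0.0547).

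Dbp in blood differed by -0.47 ± 0.20 in air (adjusted p = 0.407) and -0.65 ± 0.20 in silica (adjusted p = 0.0682), and Cry1 by -0.58 ± 0.18 (0.187) and -0.53 ± 0.18 (0.105). Dbp passed in silica with DESeq2 (-0.64, adjusted p = 0.0497), with library size as the only scaling (-0.997, adjusted p = 0.0356) and without air library 25 of 6 months (-0.65, adjusted p = 0.0271). Arntl did not pass in either, at 0.02 ± 0.15 in air and 0.01 ± 0.15 in silica. Beside these values 4 of 5 B cell markers in air and 2 of 5 in silica were lower at 6 months, with medians of -1.89 and -1.32, and 4 of 6 erythroid markers were higher in silica (median 1.25). Their part in the fall of Nr1d1 was not tested. Among 8 further clock transcription factors in blood, 1 passed between the times in silica, where 3.4% of all genes were called. It was Ciart, singled out after its values were seen, with a rise of 1.12 ± 0.29 (adjusted p = 0.0367). In air Ciart differed by 0.42 ± 0.29 (adjusted p = 0.733). The difference of its change between silica and air rats did not pass (0.70 ± 0.41, adjusted p = 0.999). Of 15 kinases, ligases and partners of the clock proteins, 1 was higher at 6 months in silica blood.

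The difference of the silica effect between the times did not pass in blood for any of the 9 genes, each with an adjusted p of at least 0.999, where 0% of 12264 genes were called and 334 had an unadjusted p under 0.05. It did not pass between blood and lung for any of the 10 genes either, against 0.192% of 16148 genes called at 1 day and 1.17% of 16444 at 6 months. At 1 day the largest differences, blood minus lung, were 0.84 ± 0.37 for Per1 (adjusted p = 0.701) and -0.76 ± 0.36 for Nr1d1 (adjusted p = 0.746). Npas2 entered this fit through its lung counts, and no difference is given for it because its blood counts were near the floor. Lung and blood samples share numbers in their titles. Over the numbers present in both tissues, 9 genes at 2 times gave 18 correlations of log2 CPM (n = 7 at 1 day, n = 6 at 6 months), and none passed, the lowest adjusted exact permutation p being 0.643 for Pearson's r and 0.787 for Spearman's rho. Air and silica samples were pooled here without subtracting group means, so any silica difference is mixed with variation within groups. Averaged lung pairs were set against the mean of the blood samples of the same numbers.

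The genes whose levels varied most like Arntl and Dbp were ranked after subtracting the mean of each group, as a description over libraries of a tissue that share depth and scaling. In lung, among 14980 genes over 17 libraries, the 4 most like Arntl were Atxn2l (r = 0.85), Trim69 (0.84), LOC102556259 (0.838) and Polr1a (0.836). The 4 most like Dbp were LOC102551815 (r = 0.931), Smim1 (0.892), RGD1562550 (0.865) and Mettl7a (0.845). Of the clock genes, Cry1 ranked 19 (r = 0.794) and Npas2 187 (r = 0.667) in likeness to Arntl, and Nr1d1 ranked 7 (r = 0.827) and Nr1d2 231 (r = 0.615) in likeness to Dbp. At the other end of the same orders, Dbp was the gene least like Arntl (r = -0.922), and Cry1 was the gene least like Dbp (r = -0.929), with Arntl next. Clock, Per1, Per2 and Per3 stood further from the ends, with r of 0.31, 0.14, -0.26 and -0.22 to Arntl. To Dbp these genes had r of -0.30, -0.31, 0.24 and 0.29.

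In blood, among 11264 genes over 24 libraries, these places were further apart. The 4 genes most like Arntl were LOC100360342 (r = 0.831), Utp15 (0.807), Phyh (0.795) and Actl6a (0.793), and the 4 most like Dbp were Tmem180 (r = 0.892), Neurl3 (0.876), Osgin1 (0.873) and Capg (0.872). Dbp was 370 places from the end in likeness to Arntl (r = -0.599), Per2 was 121 places from it (r = -0.697), and Nr1d1 ranked 536 in likeness to Dbp (r = 0.64). Cry1, with r = 0.0768 to Arntl in blood, did not share the place it had in lung. Nor did Nr1d2, with r = 0.289 to Arntl and -0.335 to Dbp. Clock had r = 0.518 to Arntl and -0.60 to Dbp, Per1 0.01 and 0.13, and Per3 0.01 and -0.25.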

How the data were processed

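RNA from 22 lung and 24 blood samples was sequenced. Per the labels' protocols, globin RNA was depleted from blood RNA and stranded libraries were made. Tools in the submitters' processing notes, listed without their roles, are Salmon 1.10.1, STAR 2.6.1d, Trim Galore 0.6.7, cutadapt 3.4 and bcl2fastq 2.19, and the genome is Rnor_6.0. The authors deposited estimated counts per gene in 4 tables, 1 for each tissue and time, neither depth- nor length-scaled per the file headers and values. Salmon divides shared reads by probability, but counts of the 10 genes were whole within 0.01 in all samples. All columns matched a sample by name.

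The 10 genes and the lists were chosen with earlier results of these data known. All 10 were tested in each comparison of lung, and 9 in those of blood alone, where Npas2 did not pass the filter. Blood, interaction and blood minus lung comparisons give values for only some of them. Of the 3 clock lists, genes past the threshold in a silica against air comparison are named, at most the 6 with the smallest adjusted p. Also named are the 4 genes most like Arntl and most like Dbp among genes of at least 1 CPM. One gene that the rule names is not reported here. Not found by name were Hlf, Fbxl21, Chrono, Gm129, Mt1, Il7r, Ighm and Adgre1.

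Counts were rounded. Library pairs of a group were compared gene by gene by a chi-square test where their mean was 20 counts or more. The 5 lung pairs averaged had 9.58% to 11.5% of genes at p under 0.05, and other lung pairs 22.8% or more. The limit of 15% was set in that gap after the data were seen. Silica and air were tested in each tissue and time with edgeR 4.0.16 in R 4.3.3 (filterByExpr, TMM, robust quasi-likelihood F test), and times and tissues as contrasts of 1 mean per group. P-values were adjusted over all genes tested. The SE is the log2 fold change over the root of F. CPM use TMM factors over all libraries of a tissue. DESeq2 1.42.0, other scaling and filtering, and leaving out each library were alternatives. The fit was tested on simulated data. Floors of 3 counts cover counting error only, since no molecular identifiers are named. Of the cell type lists, those of neutrophils, T, B and NK cells, monocytes and macrophages, platelets, erythroid, alveolar type 1 and 2, club, ciliated, endothelial and cardiac muscle cells and fibroblasts were read.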

Additional observations from a re-analysis of the deposited data

Results flagged for a closer look

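For 10 genes in each group of 4 to 6 libraries, 70 sets of values in all, the gap between an extreme library and its nearest neighbour was tested against the range of the group with Dixon's 95% limit, and 8 sets passed, where chance flags about 1 in 20. Silica library 11 of blood at 1 day had 6.55 CPM of Nr1d1 (the others 2.92 to 4.23), 7.43 CPM of Nr1d2 (18.2 to 22.9) and 25.8 CPM of Per1 (10 to 15). Silica library 31 of blood at 6 months had 2.54 CPM of Nr1d1 (2.06 to 2.2) and 4.34 CPM of Per3 (2 to 2.82), and its TMM factor of 0.467 was the lowest of the blood libraries. Silica library 12 of blood at 1 day had 1.78 CPM of Per3 (2.97 to 3.26). In lung, silica library 10 of 1 day had 103 CPM of Per1 (41.7 to 58.8) and silica library 35 of 6 months had 41.7 CPM of Nr1d1 (13 to 18.3). The silica effect on Npas2 in lung differed between the times, by 0.82 on the log2 scale in the interaction test.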

How the results depend on the processing

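Of the alternatives for counts of called genes and for ratios, 324 stayed within 1.5 times or 1 SD of the value reported, 39 moved and 3 reversed. The number of the 10 genes called between silica and air in lung at 1 day was 1 with DESeq2 and 2 with near-identical libraries separate, and 0 to 1 with a library left out. At 6 months it was 2 with libraries separate and 0 to 1 with a library left out, and for the difference of the effect between times 3 and 0 to 1. Between times it was 2 to 7 in air lung, 0 to 1 in air blood and 0 to 2 in silica blood with a library left out, and in silica blood 2 with library size alone, 0 without a filter and 2 with DESeq2. For blood minus lung at 6 months it was 1 with DESeq2, 1 with libraries separate and 0 to 1 with a library left out, each being Npas2, whose blood counts lie near the floor. With the title number as a replicate block it was 0 at both times. Same-numbered lung and blood libraries deviated together with correlations of -0.051 to 0.182 over genes, and few matched their own number best. This check cannot tell whether a number marks the same animal, since lung and blood of an animal need not vary together. The main fit did not use the numbers to pair samples. The block took the genes called from 31 and 193 to 0 and 0. The fewer samples it uses called 7 and 4 genes without the block, an alternative chosen after seeing the data. Of all genes, silica against air in lung called 594 at 1 day (1835 reported) and 6501 at 6 months (3190) in 1 fit of all groups, 6395 at 6 months with libraries separate and 57 without air libraries 19 and 24. DESeq2 called 2603 in silica lung (1598) and 785 in silica blood (417) between times, 189 in air blood (101), and 135 (31) and 795 (193) for blood minus lung. Library size alone called 154 in silica blood and 56 for blood minus lung at 6 months and moved the median of all genes in blood by up to -0.41, so blood values under it are relative to that shift. With libraries separate, blood minus lung called 50 at 1 day and 797 at 6 months. With 1 library left out, counts over all genes in lung ran from 57 to 4169 for silica against air at 6 months, from 3644 to 8452 (air) and 766 to 3000 (silica) between times and from 1641 to 5568 for the difference of the effect. They ran in blood from 53 to 159 (air) and from 1 (without silica library 31 or 32 of 6 months) to 798 (silica) between times, and for blood minus lung from 15 to 123 at 1 day and from 3 to 1254 at 6 months. Differences named in the text that changed sign, none of them called, were these. Between silica and air in lung at 6 months, Dbp was -0.006 with library size alone, -0.015 in 1 fit and -0.052 to 0.127 with a library left out, Clock 0.023 with libraries separate and -0.107 to 0.147, Per3 -0.298 to 0.008, Nr1d1 -0.353 to 0.201, and at 1 day Nr1d2 -0.021 to 0.18. In blood at 6 months, Nr1d2 was -0.127 with library size alone, Dbp 0.001 with DESeq2, 0.001 in 1 fit and -0.16 to 0.101, Cry1 -0.16 to 0.08 and Nr1d1 -0.241 to 0.088. At 1 day Per1 was -0.274 to 0.073, Cry1 -0.137 to 0.013 and Nr1d2 -0.179 to 0.056. Between times, over all alternatives, Cry1 in air lung was -0.057 to 0.124, Per1 in silica lung -0.098 to 0.418, and Arntl in blood -0.094 to 0.109 in air and -0.387 to 0.074 in silica. The log2 ratio of Dbp to Arntl in lung at 6 months, silica minus air, was -0.06 to 0.18 with a library left out, and Nr1d1 to Npas2 in its place gave -0.78. The cause was not tested. The 2 air samples limit lung comparisons that use air at 6 months, and low counts limit Npas2 in blood.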
